A study of Danio rerio with 18 samples.

Results

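Enhancer regions of the zebrafish testis and intestine, each defined by acetylation of histone H3 on lysine 27 (H3K27ac), were compared by position. All regions of the testis lists, 581 super-enhancers and 9434 typical enhancers, were set against all regions of the intestine lists, 1145 super-enhancers and 13897 typical enhancers. These 25057 regions are part of the 66306 in the 5 tissue and age sets of the series. A testis region and an intestine region were matched when they overlapped on the same chromosome by at least 50% of the shorter of the pair. A region without such an overlap is called unmatched.

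Both organs came from adult, wild-type male fish of the AB strain. Testes were taken at an age of 10 months and intestines at 1 year, with 8 testes or 5 intestines pooled in each replicate. Each organ had 2 libraries of immunoprecipitated DNA, made with the same H3K27ac antibody product, and 2 of input DNA. Chromatin was sheared to 175 bp for the testis and 200 bp for the intestine. Age, shearing and preparation therefore changed together with the organ and cannot be told apart from it. Whole organs were used, so a region that few cells carry and a region that many cells carry weakly cannot be told apart either. The lists hold no gene names, so the organ labels were not checked against marker genes.

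Each organ has 1 super-enhancer list and 1 typical-enhancer list, and neither holds values of single replicates or read depths. The depth is therefore unknown. The spread between replicates is unknown too, no difference between the organs was tested, and all values are descriptions of these lists. Intervals are 95% intervals over regions, exact Clopper-Pearson for shares and order-statistic for medians, and do not cover the spread between fish. The deposited signal is a total over the region, and signal per base pair was compared only as a percentile within a list. In the testis 73.5% of typical enhancers and 27.4% of super-enhancers carry a signal that does not divide by their own length, and most of the testis regions share a name with another. Percentiles in the testis rest on the other 2923 regions, and in the intestine on all 15042. For testis regions without a signal of their own it is unknown whether their class reflects the region itself.

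H3K27ac is placed on nucleosomes by acetyltransferases such as p300 and CBP and marks promoters and enhancers in use. Super-enhancers are dense clusters of such regions, often found near genes that define a cell's identity. The intestine is a renewing epithelium of absorptive and secretory cells with muscle, nerve and immune cells beneath it. The testis is mostly germ cells in successive stages of meiosis and sperm formation, supported by Sertoli and Leydig cells.

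Matched regions made up a larger part of the testis lists than of the intestine lists, which hold more regions. Of 10015 testis enhancers 5420 (54.1%, 53.1 to 55.1) matched an intestine enhancer, whereas 4988 of 15042 intestine enhancers (33.2%, 32.4 to 33.9) matched a testis enhancer. The regions common to both covered 27.7 Mb, which was 45.8% of the base pairs of the testis lists and 14.1% of those of the intestine lists. The intestine lists were the larger, with 197 Mb against 60.5 Mb. They covered 14.5% of the 1356 Mb spanned by the 25 chromosomes, and the testis lists covered 4.46%. The matched counts, 5420 and 4988, lie closer together than the sizes of the lists, as both are drawn from the same overlapping pairs. When the overlap had to reach 50% of both regions, 13.9% of testis and 9.24% of intestine enhancers were matched. When only testis regions with a signal of their own were kept, 11.4% of intestine enhancers were matched.

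Super-enhancers of either organ mostly had some enhancer in the other organ, but usually not a super-enhancer. In the testis 183 super-enhancers (31.5%, 27.7 to 35.4) matched an intestine super-enhancer, 259 (44.6%) matched typical enhancers but no super-enhancer, and 139 (23.9%, 20.5 to 27.6) matched none. A signal of their own was carried by 83 of these 139, against 339 of the 442 matched testis super-enhancers. In the intestine 177 (15.5%, 13.4 to 17.7) matched a testis super-enhancer, 678 (59.2%) typical enhancers alone, and 290 (25.3%, 22.8 to 28.0) none. With an overlap of 50% of both regions 75.7% of testis and 92.1% of intestine super-enhancers matched none, so most matches were between regions of unequal length. The unmatched share of intestine super-enhancers was also larger against testis regions with their own signal only (65.2%) and between the 50% of each list with the highest signal (45.2%), and that of testis super-enhancers was 36.1% when 90% of the shorter region had to overlap. Typical enhancers were unmatched more often. Their unmatched share was 47.2% in the testis and 70.3% in the intestine. A typical testis enhancer lay on an intestine super-enhancer in 11.5% of cases, and a typical intestine enhancer on a testis super-enhancer in 2.33%.

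**Figure D1:**
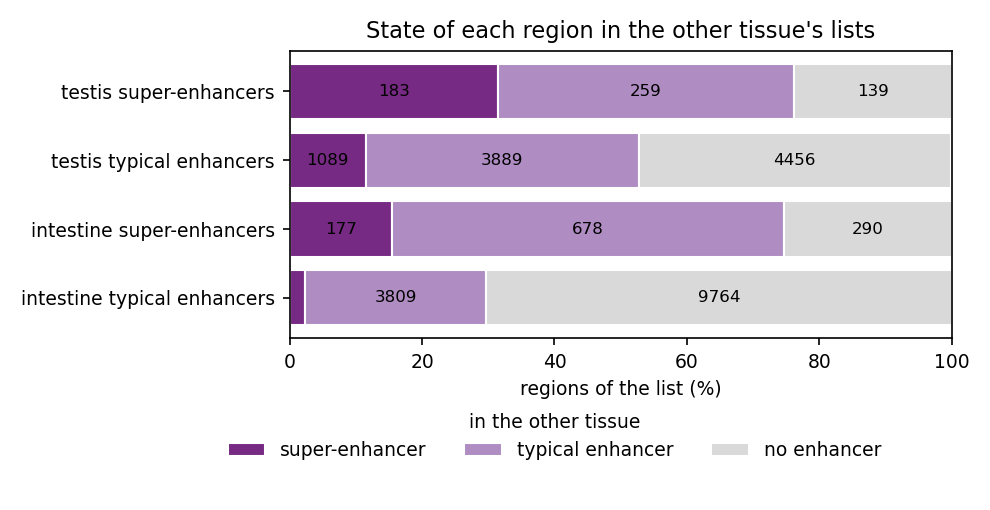
Share of regions (x axis, percent of the list) of the 4 lists (bars) that matched a super-enhancer, typical enhancers alone or no enhancer of the other tissue, with the number of regions printed in the wider segments. Super-enhancers of both tissues were unmatched in 23.9% and 25.3% of cases, and typical enhancers in 47.2% of the testis list and 70.3% of the intestine list.

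The matched share rose with length in the intestine and, over all testis regions, was lowest at intermediate lengths in the testis. Of intestine regions up to 2 kb long 21.7% were matched, of those over 2 and up to 8 kb 26.8%, and of those over 32 kb 65.5%. Testis regions up to 2 kb were matched in 59.9% (57.9 to 61.9) of 2354 cases. Those over 2 and up to 8 kb, the bulk of the testis list with 5718 regions, were matched in 47.3% (46.0 to 48.6), and the 141 regions over 32 kb in 87.2% (80.6 to 92.3). Testis regions of a single locus were matched less often above 2 kb and did not rise again, with 46.3% (45 to 47.6) matched between 2 and 8 kb and 48.6% (41.0 to 56.2) of 175 over 8 kb. Joined testis regions were matched in 68.4% (62.5 to 73.9) of 269 cases between 2 and 8 kb and in 68.9% (66.7 to 71.1) of 1768 over 8 kb. In the testis the rise at greater lengths therefore lay with the joined regions, which make up most of the regions over 8 kb. In the intestine single loci rose as well. They were matched in 27.3% (25.7 to 28.9) between 2 and 8 kb and in 38.8% (33.2 to 44.6) of 299 over 8 kb. Joined intestine regions were matched in 25.5% (22.9 to 28.2) and 47.8% (46.4 to 49.1) at these lengths. Joined regions are those whose name gives 2 or more loci. A name without such a number was counted as a single locus. Long regions meet others more easily, and this was not corrected for.

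**Figure D2:**
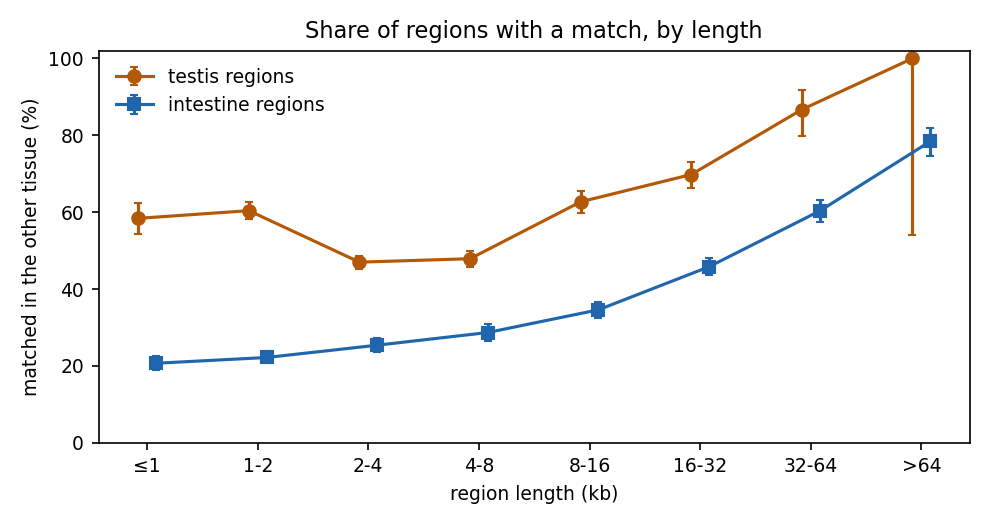
Percent of regions matched in the other tissue (y axis) by region length in kb (x axis, 8 classes), for testis and intestine regions, with 95% Clopper-Pearson intervals over regions. Intestine values rise from 20.7% to 78.4%, and testis values fall from 60.4% at 1 to 2 kb to 47.0% at 2 to 4 kb before they rise.

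Unmatched and matched regions differed in length mainly in the intestine. Unmatched intestine enhancers had a median of 3.0 kb (3.0 to 3.20) and matched ones 11.4 kb (10.6 to 12.0), and 37.2% and 59.3% of them were joined. Among regions of at least 2000 bp the unmatched median in the intestine was 9.0 kb. Among the 50% of highest deposited signal, own or not, it was 14.6 kb in the intestine and 5.60 kb in the testis. In the testis both medians were 3.60 kb, although the upper quartile was 5.2 kb in unmatched and 7.6 kb in matched regions and 13.8% and 25.9% were joined. Among super-enhancers the unmatched were the shorter in both organs, with medians of 13.4 kb (11.8 to 15.2) against 19.1 kb in the testis and 44.1 kb (40.4 to 48.6) against 55 kb in the intestine.

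Many testis enhancers lay wholly inside longer intestine regions. A joined region spans its loci and the sequence between them, and the lists do not give the positions of the loci. A testis enhancer inside one, though matched, need not lie on sequence acetylated in the intestine. A total of 2577 testis enhancers (25.7%, 24.9 to 26.6) lay with every base pair inside 1 joined intestine region, and a further 522 (5.21%) inside a single-locus intestine region. With joined taken as 5 or more loci the first share was 14.6%. A further 1162 (11.6%) held a whole intestine region without lying inside one. Counting those that did both, 1275 testis enhancers held a whole intestine region. Those matched across an edge numbered 1159 (11.6%), and those that overlapped by less than the match rule 371. Of the 371, 72 came within 5 percentage points of the 50% limit, and 43 matched regions lay as close above it. The remaining 4224 (42.2%) had no base pair in common with any intestine enhancer.

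The testis enhancers inside joined intestine regions filled little of them. Their median length was 3.20 kb, and they took up a median of 10.4% (9.85 to 11.1) of the host region, which had a median of 35.8 kb and 5 loci. Both classes lay inside about equally often, with 2434 typical enhancers (25.8% of that list, 24.9 to 26.7) and 143 super-enhancers (24.6%, 21.2 to 28.3), 99 of the latter in intestine super-enhancers with a median of 62.4 kb and 8 loci. Of the 931 typical testis enhancers inside intestine super-enhancers, 683 (73.4%) filled less than 10% of the host. Only 29 of the 1030 testis regions inside intestine super-enhancers filled at least 50% of it.

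The number of testis enhancers inside a joined intestine region grew with the number of loci, while their number per base pair did not. Testis enhancers lay inside 18.3% of intestine regions of 2 loci, 38.0% of those of 4 or 5 loci, 52.7% of those of 6 to 9 loci and 78.6% (65.6 to 88.4) of the 56 regions with 20 or more. Per 100 kb of host the number fell from 1.82 at 2 loci to 1.22 at 20 or more. Of the 1058 joined intestine super-enhancers 359 held no testis enhancer, 454 held 1 and 245 held 2 or more. Of the 5637 joined typical enhancers 4180 (74.2%) held none and 86 held 2 or more.

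With the host divided into 3 equal segments, the centre of the testis region lay in the middle segment in 288 of 931 cases (30.9%) for typical testis enhancers in intestine super-enhancers and in 375 of 1503 (25%) in joined typical enhancers. A joined region begins and ends in a locus whatever lies between, so the outer segments always hold acetylated sequence. For testis super-enhancers inside intestine super-enhancers the share was 45 of 99 (45.5%). A longer testis region leaves its centre less room near an edge. Whether the position of loci or the length of the testis region accounts for these shares was not tested.

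Among joined intestine regions, the one with the most testis enhancers was an intestine super-enhancer on chromosome 5 from 32408601 to 32613999 (build Zv9 here and below), 205 kb long with 20 loci. It held 6 typical testis enhancers of 2.40 to 32.2 kb, which covered 36.6% of it. A second intestine super-enhancer on chromosome 5, from 32675601 to 32906999 (231 kb, 24 loci), held 5 testis enhancers, 1 of them a super-enhancer, over 14.5% of its length. Both regions lie within a single stretch of chromosome 5. Those on chromosome 3 from 55463801 to 55628799 and on chromosome 4 from 17925201 to 18090199, each 165 kb long, held 5 typical testis enhancers each, over 6.18% and 15.4% of their length. On chromosome 14 from 31763601 to 31828399 a shorter intestine super-enhancer of 64.8 kb held 4 testis enhancers, 1 of them a super-enhancer, over 48.8% of it. It was the shortest of the 9 regions that held 4. The first 4 of these regions were super-enhancers in both heart sets and typical enhancers in the brain, while the one on chromosome 14 was a super-enhancer in the brain and in the heart at 10 months.

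**Figure D3:**
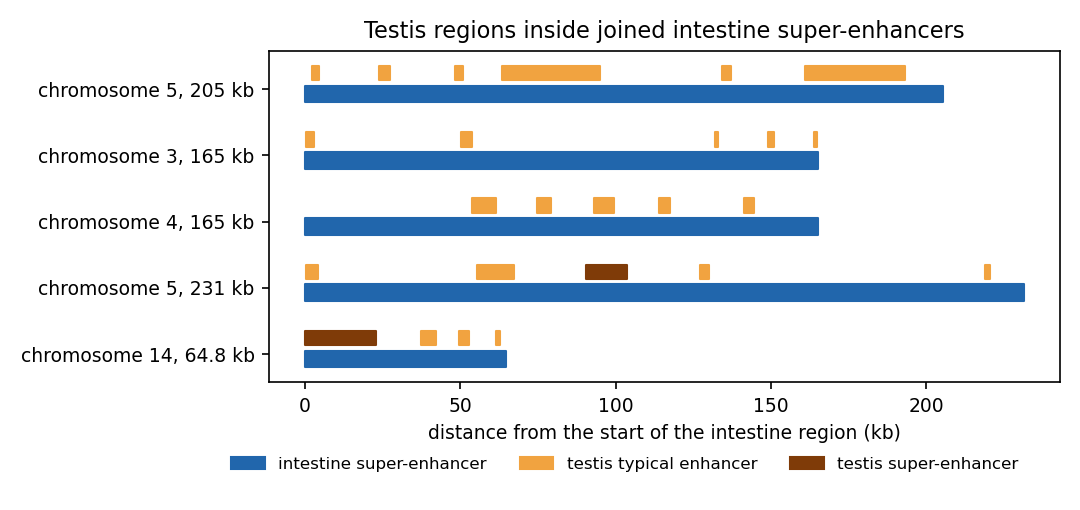
The 5 joined intestine super-enhancers that held the most testis enhancers (rows), drawn to scale as distance from the start of the intestine region in kb (x axis), with testis typical enhancers and testis super-enhancers above each. The upper 4 rows show testis regions that cover 6.18% to 36.6% of the intestine region, and the lowest row 48.8%.

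The reverse was less frequent. Inside testis enhancers lay 1338 whole intestine enhancers, 561 of them in joined testis regions and 777 in testis regions of a single locus, and only 18 of the 1338 were intestine super-enhancers. The intestine enhancers inside testis super-enhancers numbered 199, in 163 testis super-enhancers, and had a median length of 3.80 kb in hosts of 25 kb.

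Lengths differed between partners both where the class changed and where it did not. For each matched testis region the intestine partner with the most shared base pairs was taken. Where both were super-enhancers (181 regions) the testis region had a median of 17.8 kb and the intestine region 53.4 kb, and the intestine region was the longer in 85.6% of cases, by a median ratio of 2.55 (2.14 to 3.0). Where a testis super-enhancer had a typical intestine partner (261 regions) the lengths were 19.8 and 9.20 kb, with a ratio of 0.50 (0.408 to 0.550). Where a typical testis enhancer had an intestine super-enhancer as partner (1088 regions) the lengths were 4.0 and 66.5 kb, with a ratio of 17.1 (15.9 to 18.1). Where both were typical (3890 regions) they were 3.0 and 8.00 kb, with a ratio of 1.80 (1.67 to 2.0).

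Testis super-enhancers that were typical in the intestine were covered only in part. Intestine enhancers covered a median of 50.9% of these 259 regions, against 100% of the 183 that matched an intestine super-enhancer. Their typical partners stood at a median of 73.9 on the percentile scale of total signal in the intestine list, and 26 of the 259 at the percentile 90 or higher. For the 183 matched with an intestine super-enhancer, 173 had a partner that high. Class goes with total signal, so the lower standing of typical partners is built into the choice. Intestine super-enhancers that were typical in the testis had a median of 56.1 kb, of which testis enhancers covered a median of 10.9%. In 442 of these 678 (65.2%) the match was with a single testis enhancer. A testis partner with a signal of its own was present for only 218 of the 678, so the testis class is uncertain for the others.

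The 5 testis super-enhancers of this kind with the highest signal differed in how much of them intestine enhancers covered. On chromosome 25 from 28531001 to 28554399 (23.4 kb, 2 loci) 1 intestine enhancer of 2.40 kb covered 10.3% of the testis region. This testis region stood at the percentile 99.5 of signal per base pair in the testis list. It was a typical enhancer in the brain and in the heart at 10 months and had no enhancer in the heart at 1 year. On chromosome 7 from 36157201 to 36237199 (80.0 kb, 7 loci) 2 short intestine enhancers covered 10.2%, although the region was a super-enhancer in both heart sets. Coverage was 24.2% on chromosome 10 from 36186001 to 36246199 (60.2 kb), 41.4% on chromosome 1 from 47535201 to 47601799 (66.6 kb) and 53.2% on chromosome 7 from 76806801 to 76863199 (56.4 kb).

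The 5 intestine super-enhancers with the highest signal that were typical in the testis were 162 to 227 kb long. Testis enhancers covered 3.84% of the region on chromosome 25 from 18752201 to 18913799 (162 kb), 4.47% on chromosome 14 from 28932401 to 29115599 (183 kb) and 4.50% on chromosome 4 from 15454601 to 15681399 (227 kb, 31 loci). They covered 23.8% on chromosome 8 from 21141801 to 21314999 (173 kb) and 32.8% on chromosome 5 from 43496801 to 43684799 (188 kb), each with 4 testis enhancers. All 5 were super-enhancers in both heart sets. For the regions on chromosomes 25, 14 and 4 no percentile of total signal was available for the testis partners, so their testis class is uncertain.

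The pair of testis and intestine super-enhancers with the most shared base pairs lay on chromosome 1. The testis region from 46031201 to 46102999 (71.8 kb, 6 loci) and the intestine region from 46043001 to 46130799 (87.8 kb, 5 loci) shared 60.0 kb, and the locus was a super-enhancer in the brain and both heart sets too. On chromosome 16 the testis region from 40187201 to 40241199 and the intestine region from 40182801 to 40236199 were nearly the same, with 49.0 kb in common, 90.7% of the first and 91.8% of the second. It was likewise a super-enhancer in all sets. On chromosome 21 a testis super-enhancer from 23816601 to 23865999 (49.4 kb) lay wholly within an intestine super-enhancer of 83.4 kb, and both were typical enhancers in the brain and both heart sets. The other pairs among the 5 with the most shared base pairs were on chromosome 25 from 35688801 to 35748799 in the testis, with 48.0 kb shared, and on chromosome 5 from 26502401 to 26556999, with 45.8 kb shared. At the chromosome 16 locus the testis region stood at the percentile 19.8 of signal per base pair in its list and the intestine region at 84.2 in its own.

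By median distance, unmatched super-enhancers lay closer to an enhancer of the other organ than unmatched typical enhancers did. Unmatched testis super-enhancers were a median of 10.8 kb (5.40 to 13.8) from the nearest intestine enhancer, and 46 of 139 overlapped one by less than the match rule, while unmatched typical testis enhancers were 24.0 kb (22.8 to 25.2) away. Unmatched intestine super-enhancers were 31.7 kb (25.6 to 38.8) from the nearest testis enhancer and unmatched typical intestine enhancers 41.0 kb (39.6 to 42.4). Of the 290 unmatched intestine super-enhancers 33 overlapped a testis enhancer by less than the match rule. Among unmatched typical enhancers 325 of 4456 in the testis and 316 of 9764 in the intestine did so. Such overlaps count as a distance of 0. Among unmatched super-enhancers 17.6% in the intestine and 7.19% in the testis lay more than 100 kb from the other organ's lists. More than 100 kb separated 12.8% of unmatched testis enhancers and 22.8% of unmatched intestine enhancers from the other organ's lists. The intestine lists are the denser of the 2, which shortens distances to them. Super-enhancers are longer and meet other regions more easily, and distances were not corrected for length.

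The longest unmatched testis super-enhancer, on chromosome 7 from 43851401 to 43905999 (54.6 kb, 7 loci), overlapped an intestine enhancer by less than the match rule and was a super-enhancer in the brain. The others were on chromosome 1 from 45800801 to 45852999 (52.2 kb), 44.4 kb from the nearest intestine enhancer, on chromosome 10 from 487601 to 539399 (51.8 kb), 58.6 kb away, on chromosome 17 from 11240001 to 11289199 (49.2 kb), 23.0 kb away, and on chromosome 15 from 21456201 to 21504799 (48.6 kb), which touched an intestine enhancer. These 4 were typical enhancers in the brain. The one on chromosome 15 had no enhancer in either heart set.

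The 5 longest unmatched intestine super-enhancers were 166 to 265 kb long. They lay on chromosome 17 from 37833201 to 38097799 (265 kb, 29 loci, 38.6 kb from the nearest testis enhancer), on chromosome 13 from 50253801 to 50473199 (219 kb, 31 loci, 78.2 kb away) and from 25225401 to 25413399 (188 kb, 90.2 kb away), on chromosome 20 from 9663401 to 9835199 (172 kb, 141 kb away) and on chromosome 14 from 38866201 to 39032599 (166 kb, 5.00 kb away). All 5 had an enhancer in the brain and in both heart sets. At the age of 1 year the heart had super-enhancers at the first 4.

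Over regions of all lengths, signal per base pair separated matched from unmatched regions in the intestine more than in the testis. Matched intestine enhancers stood at a median percentile of 59.3 (57.8 to 60.8) in their list and unmatched ones at 46.3 (45.4 to 47.2). In the testis the medians were 51.1 (48.5 to 53.7) and 48.7 (46.1 to 51.5). The regions of each list with a signal of their own were divided into 10 nearly equal groups by signal per base pair, from decile 1 (lowest) to decile 10 (highest). Of the intestine regions in decile 10 63.7% (61.2 to 66.2) were matched, in decile 9 38.2%, and in decile 1 20.6% (18.5 to 22.7). In the testis the shares ran from 49.0% to 64.9% and were 64.9% in decile 1, whose regions had a median of 18.4 kb, and 59.7% in decile 10, whose median was 0.799 kb.

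The rise in the intestine was steeper among regions of like length. Single-locus intestine regions over 1 and up to 2 kb long were matched in 70.4% (66.3 to 74.3) of 520 cases in decile 10 of the list, in 23.2% of 341 in decile 9, and in 6.85% to 12.8% in deciles 2 to 8. Single-locus testis regions of the same lengths with a signal of their own were matched in 43.9% (30.7 to 57.6) of 57 cases in decile 7 and in 68.1% (55.8 to 78.8) of 69 in decile 10. Most short testis regions had no signal of their own and do not enter this count. Where both partners were single loci, the percentiles of the matched testis and intestine regions had a Spearman correlation of 0.501 over 347 testis regions. Over all 1698 matched testis regions with a signal of their own it was 0.194. Regions that share a partner or a neighbourhood are not independent, and these correlations are descriptions. Median lengths in deciles 1 and 10 were 18.4 and 0.799 kb in the testis and 15.4 and 1.60 kb in the intestine. The percentile thus goes with length, and the correlations were not corrected for it.

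**Figure D4:**
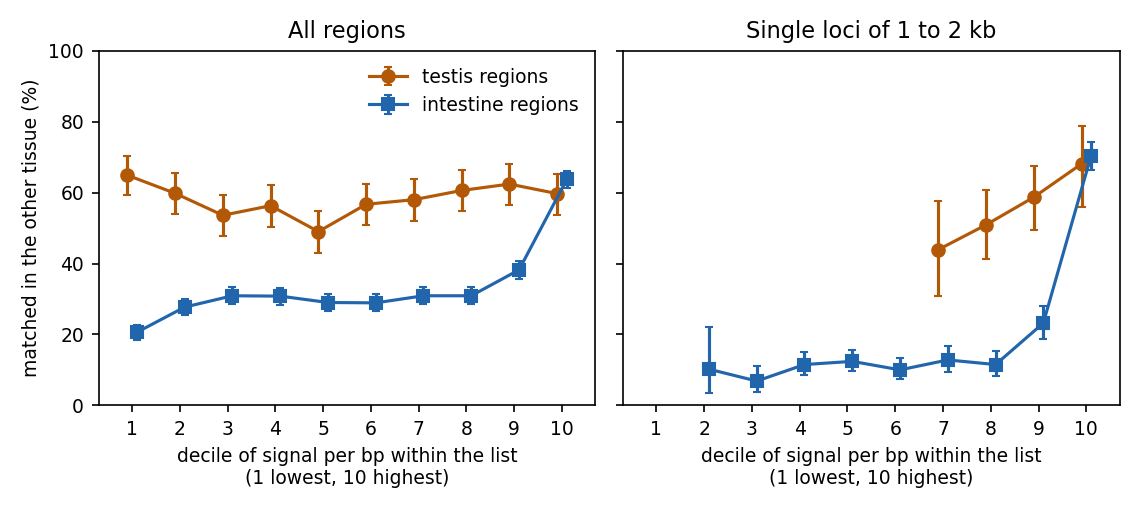
Percent of regions matched in the other tissue (y axis) by decile of signal per base pair within the list (x axis, from 1 lowest to 10 highest), for regions of any length (left) and for single-locus regions over 1 and up to 2 kb (right, deciles of under 20 regions left out), with 95% Clopper-Pearson intervals over regions. Testis points rest only on testis regions with a signal of their own, 2923 of 10015. Intestine single loci stay at 6.85% to 12.8% in deciles 2 to 8 and reach 70.4% in decile 10.

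Over chromosomes the unmatched share ranged from 37.2% to 54.1% in the testis and from 61.4% to 72.9% in the intestine. In the testis the unmatched share was highest on chromosome 19 (251 of 464, 54.1%, 49.4 to 58.7), followed by chromosomes 24 (52.0%) and 12 (51.9%), and lowest on chromosome 3 (168 of 452, 37.2%, 32.7 to 41.8), followed by chromosomes 23 (40.9%) and 5 (42.5%). Unmatched testis super-enhancers numbered 11 of 38 on chromosome 19 and 1 of 21 on chromosome 3. In the intestine the share was highest on chromosome 9 (423 of 580, 72.9%, 69.1 to 76.5), then on chromosomes 14 and 13 (both 71.6%), and lowest on chromosome 25 (61.4%, 56.8 to 65.9), then on chromosomes 11 (63.3%) and 23 (64%). These are extremes of 25 chromosomes, their intervals treat neighbouring regions as independent, and whether chromosomes differ was not tested. The unmatched shares of the organs did not run together over chromosomes, with a Spearman correlation of -0.0300 (n = 25 chromosomes, a description).

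The number of regions per Mb varied over chromosomes in both organs. It ran from 5.15 on chromosome 4 to 9.23 on chromosome 19 in the testis and from 7.55 on chromosome 4 to 13.7 on chromosome 23 in the intestine. Over the 25 chromosomes, which share their length and gene content between the organs, the Pearson correlation was 0.609 and the Spearman correlation 0.408. Chromosome 19 also had the most testis super-enhancers per 10 Mb, 7.56, and the highest share of its length in testis enhancers, 6.15%. On chromosome 4, whose long arm is known as rich in repeats and poor in protein-coding genes, 278 of 320 testis regions and 387 of 469 intestine regions lay below 31.0 Mb, the midpoint. All 36 intestine super-enhancers of the chromosome lay there, and 22 of its 24 testis super-enhancers.

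**Figure D5:**
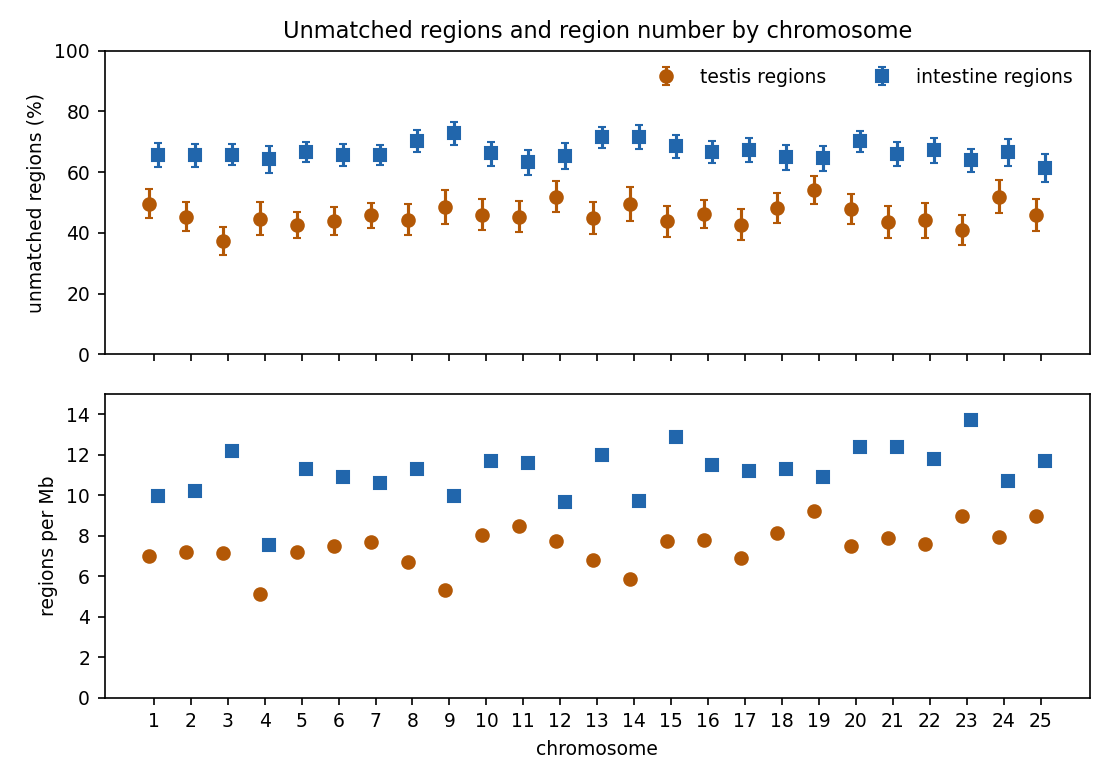
Percent of regions unmatched in the other tissue (upper panel, with 95% Clopper-Pearson intervals over regions) and regions per Mb (lower panel) on each of the 25 chromosomes (x axis), for testis and intestine. Testis regions were unmatched in 37.2% on chromosome 3 and 54.1% on chromosome 19, and both lists had their fewest regions per Mb on chromosome 4.

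Testis enhancers matched in the intestine mostly had matches in brain and heart as well. Of the 5420 matched testis enhancers 85.3% also matched an enhancer of the heart at 1 year, 78.9% a heart enhancer at 10 months and 63.9% a brain enhancer, and 3000 (55.4%) matched all 3. Only 443 (8.17%, 7.46 to 8.93) matched none of the 3. Of the 4595 testis enhancers unmatched in the intestine 25.1% matched the brain, 22.1% the heart at 1 year and 19% the heart at 10 months, and 2589 (56.3%, 54.9 to 57.8) matched none. The 139 unmatched testis super-enhancers matched none in 49 cases (35.3%, 27.3 to 43.8).

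Intestine enhancers were found in heart more often than in brain whether or not they were matched in the testis. Of the 4988 matched regions 89.1% matched the heart at 1 year, 84.1% the heart at 10 months and 69.1% the brain. Of the 10054 unmatched regions 55.5% matched the heart at 1 year, 42.5% the heart at 10 months and 31.1% the brain, and 3415 (34.0%) matched none. Of the 290 unmatched intestine super-enhancers 264 (91.0%) matched the heart at 1 year, and 14 (4.83%, 2.66 to 7.97) matched none. The heart at 1 year shares age and fragment size with the intestine, the brain and the other heart set share them with the testis, and both heart sets hold more regions than the brain or the testis lists. Matched intestine regions were also longer than unmatched ones, with medians of 11.4 and 3.0 kb. The 290 unmatched intestine super-enhancers had a median of 44.1 kb. Long regions meet others more easily, and these shares were not corrected for length.

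Intestine enhancers of highest signal per base pair were those most often found in all 3 other sets, matched or not. Matched intestine enhancers in decile 10 had a match in all 3 other sets in 799 of 959 cases (83.3%, 80.8 to 85.6), those in deciles 2 to 9 in 58.0% and those in decile 1 in 45% (39.3 to 50.7), with median lengths of 1.80 kb in decile 10 and 18.8 kb in decile 1. Unmatched intestine enhancers had a match in all 3 in 33.9% (29.9 to 38.0) of 546 cases in decile 10, in 16.9% in deciles 2 to 9 and in 21.7% in decile 1. In the testis there was no steady rise. The share was 59.3% (51.9 to 66.3) of 189 matched regions in decile 1, 53.1% (50.4 to 55.8) in deciles 2 to 9 and 69.9% (62.5 to 76.6) of 176 matched regions in decile 10, whose median length was 0.999 kb. In unmatched testis regions the share was 7.84% in decile 1, 7.27% in deciles 2 to 9 and 1.68% (0.204 to 5.94, 2 of 119) in decile 10.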

How the data were processed

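The authors deposited, for each tissue and age, a super-enhancer and a typical-enhancer list in coordinates of build Zv9, with a signal for each region. Per the submitters' processing notes, the tools used were SICER 1.1, Bowtie2 2.1.0, CASAVA, bedtools 2.24.0 and SAMtools 0.1.8, with no roles given. Not given in the sources used here were the joining of loci, the super-enhancer threshold, the use of input and the combination of replicates. Starts lie on multiples of 200 bp, and regions whose names give a locus number lie at least 12601 bp apart. The deposited signal, multiplied by 10000, divides by the region's length in every intestine region and in 29.2% of testis regions, which were taken to have their own signal. Length is end minus start, and positions are printed counted from 1.

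Matching, containment (every base pair inside) and percentiles were computed with Python 3.11.15, numpy 2.4.6, pandas 2.3.3 and scipy 1.17.1, and drawn with matplotlib 3.10.9. The overlap steps were tested on simulated data. No test was run, since lists have no replicates. Named regions are the longest 5 unmatched super-enhancers of each organ, the 5 super-enhancer pairs with the most shared base pairs, the 5 joined intestine regions holding the most testis enhancers (shorter first where tied), and the 5 super-enhancers of highest signal in each organ that were typical in the other. For chromosomes they are the 3 highest and the 3 lowest. Members and rules were chosen with earlier results of these data known. Chromosome lengths were the highest end in any of the 10 lists. No genome or annotation of Zv9 was used, so no genes and no sequences are given.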

Additional observations from a re-analysis of the deposited data

How the results depend on the processing

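Of 75 values for 11 results under 9 alternatives, 28 stayed within the 95% interval of the reported value and 47 did not. All 11 stayed within it without chromosome 4, which holds only 320 testis and 469 intestine regions. Some of the 28 values could not move. Every super-enhancer is at least 3.20 kb long and in the upper 50%, so the length and upper-50% settings leave matches between super-enhancers unchanged. The density percentile of matched testis enhancers already rests on regions with their own signal. No paired analysis was possible because the lists hold no value per replicate, and for the same reason no replicate could be left out.

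The share of testis enhancers with an intestine enhancer (54.1%) was 57.8% with any overlap of 1 bp, 46.1% with 90% of the shorter region, 13.9% with 50% of both regions, 58.1% with testis regions of own signal only, 45% with regions of at least 2000 bp and 47.5% in the 50% of each list with the highest signal. In the same order the share of intestine enhancers with a testis enhancer (33.2%) was 35.5%, 28.2%, 9.24%, 11.4%, 31.1% and 29.1%. The share of testis super-enhancers with no intestine enhancer (23.9%) was 16%, 36.1%, 75.7%, 19.7%, 31.2% and 34.6%, and that of intestine super-enhancers with no testis enhancer (25.3%) 22.4%, 30.7%, 92.1%, 65.2%, 34.5% and 45.2%. With 90% of the shorter region and with 50% of both, the shares of testis super-enhancers that matched an intestine super-enhancer were 24.6% and 9.47%, and of intestine super-enhancers that matched a testis super-enhancer 12.3% and 4.80%. The last was 12.4% with own signal only.

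The share of testis enhancers inside joined intestine regions (25.7%) was 28.3% when 90% of base pairs sufficed, 14.6% when joined meant 5 or more loci, 23.9% with own signal only and 24.3% with at least 2000 bp. The median length of unmatched testis enhancers (3.60 kb) was 4.0 kb with own signal only and with at least 2000 bp, and 5.60 kb in the upper 50%. That of unmatched intestine enhancers (3.0 kb) was 2.80 kb with 1 bp, 4.60 kb with 50% of both, 3.80 kb with own signal only, 9.0 kb with at least 2000 bp and 14.6 kb in the upper 50%. The density percentile of matched testis enhancers (51.1) was 56.6 with 50% of both and 54.0 in the upper 50%. That of matched intestine enhancers (59.3) was 57.7 with 1 bp, 82.0 with 50% of both, 63.4 with at least 2000 bp and 64.2 in the upper 50%. The upper 50% of the testis list was ranked by deposited signal, own or not, and 70.8% of testis regions have no signal of their own. Requiring 50% of both regions drops short regions inside long ones by construction, and the own-signal and upper-50% forms leave fewer regions to match. Other causes were not tested.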

Other observations

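The windows below have the highest counts of unmatched regions, were chosen after their values were seen and follow the density of regions as well as the unmatched share. Whether unmatched regions cluster was not tested. Over all chromosomes 66.8% of intestine and 45.9% of testis regions were unmatched. The window of 1 Mb with the most unmatched intestine regions was on chromosome 15 from 19000001 to 20000000, where 37 of 47 intestine regions were unmatched and 13 testis regions lay. The corresponding testis window was on chromosome 21 from 25000001 to 26000000, with 16 of 22 testis regions unmatched, 3 of them super-enhancers, beside 14 intestine regions. Both next windows for the testis were on chromosome 19, with 14 of 17 regions unmatched from 10000001 to 11000000 and 14 of 21 from 43000001 to 44000000. The testis region farthest from any intestine enhancer was a typical enhancer of 1.20 kb on chromosome 4 from 36409601 to 36410799, 2114 kb away. The most isolated intestine region, of 0.599 kb, was on the same chromosome from 49296401 to 49296999, 2083 kb from any testis enhancer.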
